A study of Homo sapiens with 18 samples.

Results

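The genes described here carry out or regulate the passage of cholesterol into the cell, out of the lysosome, between membranes and into storage. They are 8 genes, MYLIP, SCARB1, LIPA, NPC1, NPC2, TMEM97, STARD4 and SOAT1, taken by symbol from the 26249 gene rows of a deposited table of FPKM values, a density of sequenced fragments scaled by transcript length and library. All 8 averaged 1 FPKM or more across all 18 libraries, as did 11477 genes in all, and only these were tested. The libraries came from polyadenylated RNA of PATU-8902 and PATU-8988T, established human pancreatic ductal adenocarcinoma cell lines grown in DMEM with fetal bovine serum. Both lines received DCLK1-IN-1, a compound that inhibits the kinase DCLK1, at a dose of 2.5 µM and were harvested after 6 h or 24 h, while control cells received only its solvent DMSO and were harvested after 24 h. Each of the 6 groups held 3 libraries, called biological triplicates in the series record, so p-values measure the spread between these libraries only. The DMSO cells of both lines were taken at 24 h, so an effect of the inhibitor at 6 h and a difference in time after dosing cannot be told apart. Each line is a single culture model, and in bulk RNA a smaller share of expressing cells and less RNA per cell cannot be told apart.

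Cells take up cholesterol from lipoproteins through receptors at the surface, and the sterol esters are split by acid lipase in the lysosome. Free sterol leaves the lysosome through the paired proteins NPC2 and NPC1, is moved between membranes by carriers such as STARD4, and is stored as ester after transfer of a fatty acid by SOAT1. When sterol in the endoplasmic reticulum runs low, the transcription factor SREBP2 raises the genes of synthesis and uptake, and when oxysterols rise, LXR receptors raise genes of efflux and MYLIP, a ubiquitin ligase that sends lipoprotein receptors to degradation.

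The median FPKM of the tested genes ran from 6.12 to 17.4 over the 18 libraries and differed within groups too, while the mean log2 deviation of the spike-in controls was -0.06 to 0.05. Per the labels' protocols the spike-ins were added to RNA set by cell number, so the deposited scale, log2(FPKM + 1), keeps a change shared by all genes. The changes are also given after each library was shifted on that scale to a common median, called centred, which removes such a shared change. PATU-8988T DMSO replicate 1 stood apart from its group, with a median of 6.12 FPKM against 12.1 and 10.2 FPKM in replicates 2 and 3. Changes of PATU-8988T are also given without it. In this line replicate 1 had the lowest median at 6 h and at 24 h too, at 7.08 and 6.30 FPKM. The 24 h libraries were all at 6.30 to 8.01 FPKM. Fits without the DMSO replicate keep these libraries, so they drop a low library from DMSO only. DCLK1 itself had group means of 21.2 to 29.2 FPKM and passed the test in none of the inhibitor comparisons on either scale. The epithelial keratins KRT8 and KRT18 were high in both lines, at 168 FPKM or more in PATU-8988T and 669 FPKM or more in PATU-8902. KRT19, KRT7 and CDH1 were at most 0.228 FPKM in PATU-8988T, where VIM was at 131 to 271 FPKM. The epithelial marker EPCAM was at 9.67 to 17.2 FPKM in PATU-8988T and at 556 to 932 FPKM in PATU-8902. The 7 markers of leukocytes, macrophages, T cells, endothelium, fibroblasts, hepatocytes and acinar cells other than CD68 were below 1 FPKM in every library. CD68 was at 3.55 to 17.3 FPKM, and its part in the results was not tested.

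With all libraries in the fit, changes under the inhibitor passed the test in PATU-8902 and not in PATU-8988T, and that of STARD4 was the largest of the 8. At 24 h in PATU-8902, STARD4 averaged 10.98 ± 2.76 FPKM, against 3.08 ± 0.460 FPKM in DMSO, which is 2.90-fold on the deposited scale, where 1 is added to each value. It was the only one of the 8 genes to pass, where 0.105% of all tested genes passed as higher and 0.00871% as lower. On the centred scale STARD4, TMEM97, NPC1 and LIPA passed, 4 of 8, where 0.418% of all genes passed as higher and 0.0261% as lower. The median change of the 8 genes was 0.32 deposited and 0.26 centred, beside 0.04 and -0.02 over all genes. At 6 h in PATU-8902, 0 of 8 passed on the deposited scale, where 0.00871% of all genes passed as higher and 0% as lower, and 2 of 8 on the centred scale. These were STARD4, higher, and MYLIP, lower, where 0.105% of all genes passed as higher and 0.00871% as lower. In PATU-8988T none of the 8 passed at 6 h or at 24 h on either scale, where 0.0523% and 0.0261% of all genes passed as higher and lower at 6 h on the centred scale and 0% in the other 3 sets. At an unadjusted p below 0.05, STARD4 was the only one of the 8 in PATU-8988T, at 6 h on both scales and at 24 h on the centred scale, while over all genes 287 and 3390 were below it at 6 h and 687 and 1923 at 24 h.

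Genes whose 3 libraries all lay above or all below the other 3 were also counted, as a description of the same libraries. These counts differ from the test in places. At 24 h against DMSO in PATU-8902, 3 of 8 lay above and 0 below as deposited, where 5.84% and 0.653% of all genes did, and 5 above and 1 below centred, where 6.11% and 6.99% did. At 6 h against DMSO in PATU-8902, STARD4 lay above and MYLIP below as deposited, where 1.15% and 0.889% did, and 4 above and 1 below centred, where 3.67% and 4.37% did. In PATU-8988T no gene of the 8 was clear of DMSO at 24 h, where 0.105% above and 1.22% below were as deposited and 3.58% and 3.98% centred. At 6 h in PATU-8988T only STARD4 was clear of DMSO, above it, where 1.98% above and 0.0697% below were as deposited and 10.2% and 9.51% centred.

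Between the inhibitor times none of the 8 passed in either line. In PATU-8902 all 8 were above 0 at 24 h minus 6 h, at 0.14 to 0.53 deposited and 0.04 to 0.43 centred, where 0% of all genes passed as deposited and 0.209% as higher and 0.0349% as lower centred. At an unadjusted p below 0.05 were STARD4 and MYLIP as deposited, with LIPA and TMEM97 in addition centred, beside 197 and 981 of all genes. STARD4 lay above as deposited, where 3.37% above and 0.610% below did, and STARD4, TMEM97 and LIPA lay above centred, where 7.31% and 7.02% did. In PATU-8988T all 8 were below 0 as deposited, at -0.59 to -0.23, beside a median of -0.32 over all genes, and ran from -0.25 to 0.11 centred, where 0% of all genes passed on either scale. STARD4 lay below as deposited, where 0.0697% above and 9.09% below did, and NPC2 lay above and NPC1 and TMEM97 below centred, where 8.88% and 12.2% did.

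Without PATU-8988T DMSO replicate 1, 4 of 8 passed in PATU-8988T at 24 h on each scale, but not the same 4. Of all genes 56.8% passed as deposited and 40.8% centred. As deposited 6508 of the 11477 tested genes passed as lower and 6 as higher, so lower calls there were common to most genes. Centred, 2443 passed as lower and 2237 as higher. As deposited SCARB1, NPC1, NPC2 and TMEM97 were lower, NPC1 at -0.76 ± 0.27 (adjusted p = 0.0247), NPC2 at -0.73 ± 0.30 (adjusted p = 0.0480) and TMEM97 at -0.64 ± 0.24 (adjusted p = 0.0365). Centred, none of NPC1, NPC2 and TMEM97 passed, SCARB1 was lower, and STARD4, LIPA and SOAT1 were higher, LIPA by 0.20 ± 0.06 (adjusted p = 0.0221) and SOAT1 by 0.19 ± 0.07 (adjusted p = 0.0461). At 6 h without it, 0 of 8 passed as deposited, where 0.0261% of all genes did and the smallest adjusted p of the 8 was 0.122 by limma. Centred, SCARB1 was lower, at -0.37 ± 0.09 (adjusted p = 0.00567), and STARD4, LIPA and SOAT1 were higher. LIPA was higher by 0.17 ± 0.06 (adjusted p = 0.0358) and SOAT1 by 0.23 ± 0.07 (adjusted p = 0.0205). Of all genes 42.6% passed there, 2725 as lower and 2159 as higher.

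**Figure D1:**
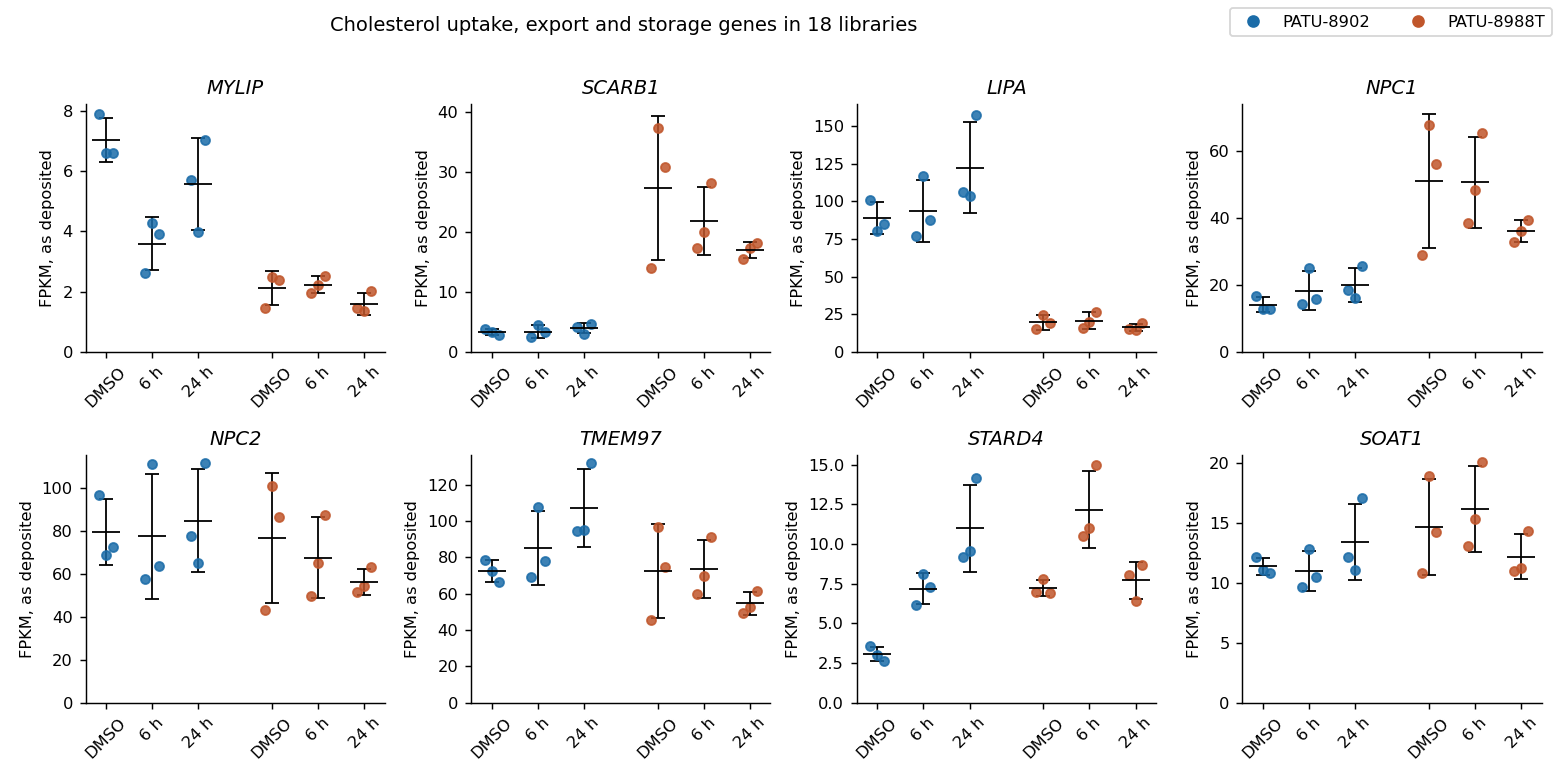
FPKM as deposited of each of the 8 genes in each library (points), with the mean and SD of each group of 3 (black bars), in DMSO and at 6 h and 24 h of 2.5 µM DCLK1-IN-1. STARD4 of PATU-8902 stands at 2.66 to 3.57 FPKM in DMSO, 6.15 to 8.08 at 6 h and 9.21 to 14.2 at 24 h, and SCARB1, NPC1 and LIPA separate the lines in every condition.

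**Figure D2:**
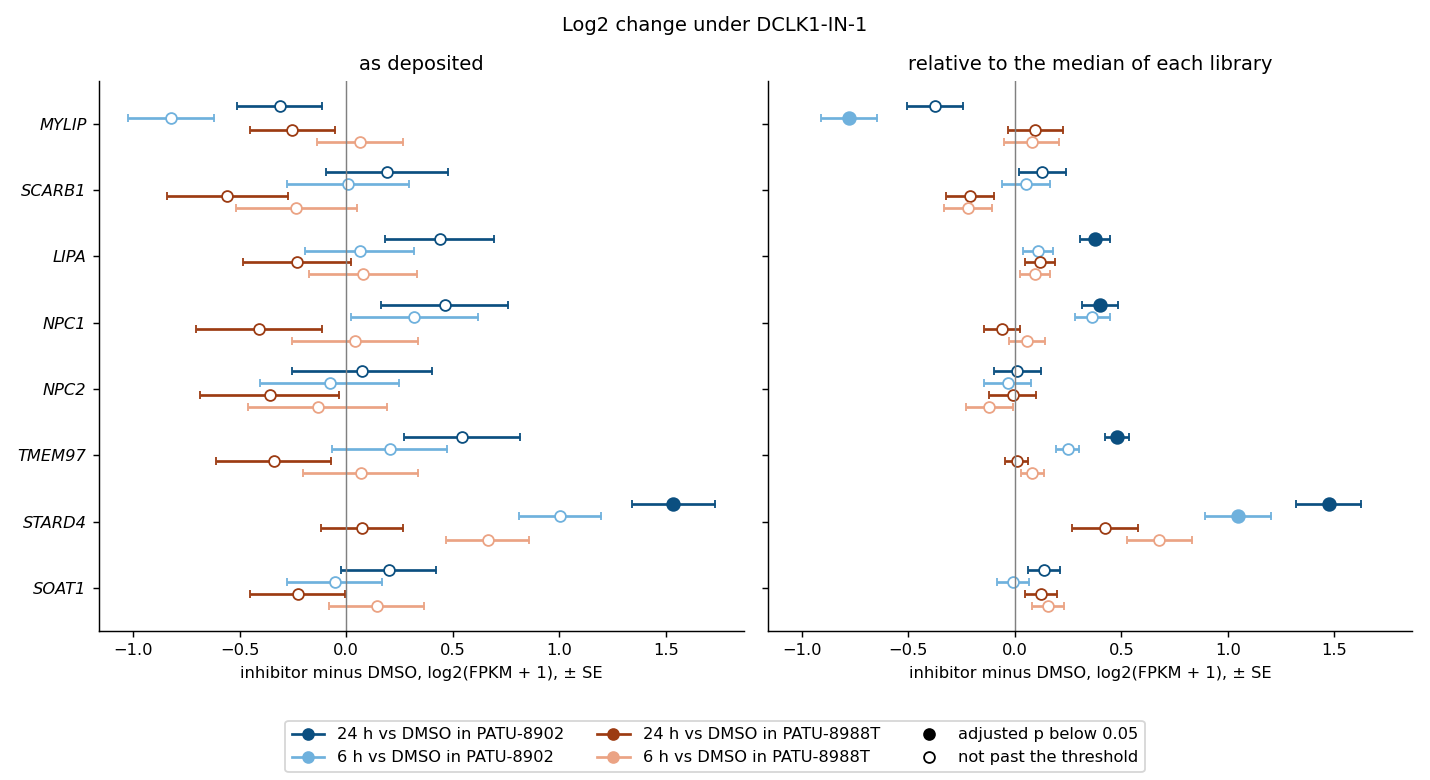
Change of each gene at 24 h and 6 h against DMSO in each line, in log2(FPKM + 1) with its SE, as deposited (left) and relative to the median of each library (right), where filled points have an adjusted p below 0.05. The filled points are STARD4 at 24 h in PATU-8902 on the left, and STARD4, TMEM97, NPC1 and LIPA at 24 h and STARD4 and MYLIP at 6 h in PATU-8902 on the right.

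The promoters shown are those of the 2 genes that rose most at 24 h in PATU-8902, STARD4 and TMEM97, and of MYLIP. MYLIP passed as lower at 6 h in that line on the centred scale. They are the 250 bases before the annotated start in RefSeq (GRCh38.p14), read 5′ to 3′ on the strand of the gene. Capitals mark the CCAAT box, bound by NF-Y, a factor known to act beside SREBP2 at sterol genes, in either orientation (CCAAT or ATTGG). The STARD4 promoter is chr5:111512536-111512785 on the minus strand, that of TMEM97 is chr17:28318950-28319199 on the plus strand, and that of MYLIP is chr6:16128836-16129085 on the plus strand.
STARD4: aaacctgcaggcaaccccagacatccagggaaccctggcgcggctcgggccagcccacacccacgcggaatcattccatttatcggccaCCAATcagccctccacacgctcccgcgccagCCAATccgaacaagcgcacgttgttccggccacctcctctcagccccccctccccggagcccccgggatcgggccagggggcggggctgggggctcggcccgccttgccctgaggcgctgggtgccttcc
TMEM97: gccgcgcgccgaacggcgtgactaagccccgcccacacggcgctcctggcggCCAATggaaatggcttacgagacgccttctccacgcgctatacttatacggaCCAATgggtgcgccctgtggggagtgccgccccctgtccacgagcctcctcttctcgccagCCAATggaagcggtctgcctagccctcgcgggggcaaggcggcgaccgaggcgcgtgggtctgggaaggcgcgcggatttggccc
MYLIP: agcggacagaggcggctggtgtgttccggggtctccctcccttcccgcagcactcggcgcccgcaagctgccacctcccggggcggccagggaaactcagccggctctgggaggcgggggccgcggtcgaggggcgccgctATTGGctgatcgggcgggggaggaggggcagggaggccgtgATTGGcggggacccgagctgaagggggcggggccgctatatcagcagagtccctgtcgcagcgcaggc
STARD4 had 2 CCAAT boxes, at 161 and 130 bases before the start, TMEM97 had 3, at 198, 146 and 85 bases, and MYLIP had 2, at 109 and 68 bases. Of 35116 RefSeq promoters of this length, 32.0% held at least 1 such box, 9.53% at least 2 and 2.93% at least 3. SOAT1 had 1 box and NPC1 none, NPC2 had 2 at one of its annotated starts and none at the other, and LIPA had 1, 3 and none at its 3 starts. A sterol regulatory element written TCACNCCAC, found in 0.883% of promoters, an E-box CACGTG, found in 6.34%, and the LXR direct repeat DR4, found in 0.0142%, were searched on both strands and matched no promoter of the 7 genes in the table.

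Of the genes of uptake and its control, MYLIP, which sends lipoprotein receptors to degradation, fell at 6 h in PATU-8902 on the centred scale. SCARB1 passed in no inhibitor comparison with all libraries. MYLIP read 7.88, 6.61 and 6.59 FPKM in DMSO, 2.60, 4.27 and 3.90 FPKM at 6 h, and 5.72, 3.97 and 7.03 FPKM at 24 h in PATU-8902. All 3 libraries at 6 h lay below all 3 in DMSO, as for 0.889% of all genes, and those at 24 h lay between and overlapped both. Centred, the 24 h libraries, at 2.50, 2.11 and 2.34, were all below DMSO, at 2.69, 2.68 and 2.70, as for 6.99% of all genes. The change at 6 h against DMSO was -0.82 ± 0.20 (SE) deposited, with an adjusted p of 0.559 by limma, and -0.78 ± 0.13 centred, with an adjusted p of 0.0206. On the centred scale the call held in 1 of the 6 fits that left out 1 library, that without replicate 3 at 6 h, and the adjusted p ran from 0.0176 to 0.170 while the change stayed between -0.88 and -0.71. At 24 h against DMSO the change was -0.31 ± 0.20 deposited and -0.38 ± 0.13 centred, with adjusted p of 1.0 and 0.536. Between the times, MYLIP was higher at 24 h than at 6 h by 0.51 ± 0.20 deposited and 0.40 ± 0.13 centred, which did not pass (adjusted p of 1.0 and 0.484).

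In PATU-8988T MYLIP was near the filter, at 1.47, 2.48 and 2.39 FPKM in DMSO, 1.95, 2.21 and 2.51 FPKM at 6 h and 1.44, 1.34 and 2.02 FPKM at 24 h. The 3 conditions overlapped, and the change at 6 h was 0.06 ± 0.20 deposited and 0.08 ± 0.13 centred. The difference between the lines of the 6 h change, PATU-8902 minus PATU-8988T, was -0.89 ± 0.28 deposited and -0.86 ± 0.18 centred. It ranked 7 and 8 among all genes by p, and did not pass (adjusted p of 1.0 and 0.392), where 0% of all genes passed on either scale and 99 and 1385 had an unadjusted p below 0.05. Without PATU-8988T DMSO replicate 1 the difference was -0.73 ± 0.27 deposited (adjusted p = 0.538) and -0.95 ± 0.18 centred (adjusted p = 0.00735), where 20.1% of all genes passed on the centred scale, SCARB1 by 0.42 ± 0.12 (adjusted p = 0.0307) and NPC1 by 0.41 ± 0.10 (adjusted p = 0.0158) among them.

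SCARB1, the scavenger receptor that takes sterol ester from high-density lipoprotein, stayed low in PATU-8902. It read 4.11, 3.03 and 4.63 FPKM at 24 h, against 3.82, 3.29 and 2.76 FPKM in DMSO, and the groups overlapped. The change was 0.19 ± 0.29 deposited and 0.13 ± 0.11 centred, with a 95% interval of -0.11 to 0.37 on the centred scale. In PATU-8988T it read 15.5, 17.2 and 18.1 FPKM at 24 h, against 13.97, 37.3 and 30.9 FPKM in DMSO. Replicate 1 of DMSO was the lowest of these 6 libraries and the other two were the highest. With all libraries the change was -0.56 ± 0.29 deposited (adjusted p = 0.334) and -0.21 ± 0.11 centred (adjusted p = 0.308). Without that replicate it was -0.97 ± 0.23 (adjusted p = 0.0118) and -0.36 ± 0.09 (adjusted p = 0.00833), where 56.8% and 40.8% of all genes passed. As deposited 6508 of these were lower and 6 higher, and centred 2443 and 2237.

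The lysosomal genes split, with LIPA and NPC1 higher at 24 h in PATU-8902 on the centred scale and NPC2 near 0 change. LIPA, the acid lipase that frees cholesterol from its esters, read 106, 104 and 157 FPKM at 24 h, against 101, 80.4 and 85.2 FPKM in DMSO. On the centred scale these were 6.50, 6.51 and 6.64 at 24 h, against 6.21, 6.10 and 6.21 in DMSO. All 3 libraries at 24 h were above all 3 in DMSO on both scales, as for 5.84% of all genes deposited and 6.11% centred. The change was 0.44 ± 0.25 deposited (adjusted p = 1.0) and 0.38 ± 0.07 centred (adjusted p = 0.0197). With the replicate number as a block the centred adjusted p was 0.0605. The centred call held in 1 of the 6 fits that left out 1 library, that without replicate 1 at 24 h, with adjusted p of 0.0479 to 0.140 and changes of 0.33 to 0.40. At 6 h LIPA differed from DMSO by 0.06 ± 0.25 deposited and 0.11 ± 0.07 centred, and at 24 h it was above 6 h by 0.37 ± 0.25 (adjusted p = 1.0) deposited and 0.27 ± 0.07 (adjusted p = 0.281) centred.

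NPC1, the membrane protein that passes sterol out of the lysosome, read 18.5, 15.9 and 25.7 FPKM at 24 h in PATU-8902, against 16.6, 12.8 and 12.9 FPKM in DMSO. The groups overlapped as deposited. On the centred scale the 24 h libraries, at 4.04, 3.88 and 4.08, were all above DMSO, at 3.68, 3.54 and 3.57, as for 6.11% of all genes. The change was 0.46 ± 0.30 deposited (adjusted p = 1.0) and 0.40 ± 0.08 centred (adjusted p = 0.0470), and 0.125 with the replicate number as a block on centred values. The centred call held in 1 of 6 fits that left out 1 library, that without replicate 2 at 24 h, with adjusted p of 0.0365 to 0.225 and changes of 0.36 to 0.46. NPC1 at 6 h read 14.2, 24.9 and 15.6 FPKM, and was above DMSO by 0.32 ± 0.30 (adjusted p = 1.0) deposited and by 0.36 ± 0.08 on the centred scale, with all libraries apart, as for 3.67% of all genes, and an adjusted p of 0.245. At 24 h minus 6 h it differed by 0.14 ± 0.30 deposited and 0.04 ± 0.08 centred.

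NPC2, the soluble lysosomal protein that hands sterol to NPC1, read 77.6, 65.1 and 112 FPKM at 24 h in PATU-8902, against 96.8, 68.5 and 72.7 FPKM in DMSO. The change was 0.07 ± 0.33 deposited and 0.01 ± 0.11 centred, with a 95% interval of -0.23 to 0.25 centred. A change of either sign within that interval is not excluded. The ratio of NPC1 to NPC2 within a library, which no scaling between libraries can alter, was 0.230 to 0.245 at 24 h, 0.224 to 0.246 at 6 h and 0.172 to 0.187 in DMSO. The libraries of both inhibitor groups lay above those of DMSO, and an exact permutation test of 3 against 3 cannot give a p below 0.1. In PATU-8988T the ratio was 0.625 to 0.664 at 24 h, 0.741 to 0.773 at 6 h and 0.650 to 0.675 in DMSO, so only the 6 h group stood clear there.

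TMEM97 is a small membrane protein that binds NPC1 and lowers its level in human cells, and is itself raised by SREBP2. It read 94.4, 95.1 and 132 FPKM at 24 h in PATU-8902, against 78.3, 72.7 and 66.4 FPKM in DMSO. On the centred scale these were 6.33, 6.38 and 6.39 at 24 h, against 5.85, 5.96 and 5.85 in DMSO. All libraries at 24 h were above those in DMSO on both scales, as for 5.84% of all genes deposited and 6.11% centred. The change was 0.54 ± 0.27 deposited (adjusted p = 1.0) and 0.48 ± 0.06 centred (adjusted p = 0.000123). The centred call held in 6 of 6 fits that left out 1 library, with changes of 0.46 to 0.52. At 6 h TMEM97 was between, at 6.11, 6.15 and 6.14 centred, which was 0.25 ± 0.06 above DMSO (adjusted p = 0.208) and 0.23 ± 0.06 below 24 h (adjusted p = 0.176). As deposited TMEM97 at 6 h was above DMSO by 0.20 ± 0.27 (adjusted p = 1.0), and at 24 h above 6 h by 0.34 ± 0.27 (adjusted p = 1.0).

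In PATU-8988T TMEM97 read 49.5, 52.8 and 61.4 FPKM at 24 h, against 45.5, 96.9 and 74.5 FPKM in DMSO. The difference was -0.34 ± 0.27 (adjusted p = 0.378) deposited and 0.01 ± 0.06 centred, with a centred 95% interval of -0.11 to 0.13. The difference between the lines of the 24 h change, PATU-8902 minus PATU-8988T, was 0.88 ± 0.38 deposited (adjusted p = 0.547) and 0.47 ± 0.08 centred (adjusted p = 0.0109). Centred, TMEM97 was the only one of the 8 genes to pass this test, and as deposited none did, where 0.218% of all genes passed as higher and 0.00871% as lower on the centred scale and 0.00871% as higher on the deposited one. The centred call held in 11 of 12 fits that left out 1 library, and without PATU-8902 DMSO replicate 3 the adjusted p was 0.0570. With the replicate number as a block on centred values TMEM97 did not pass (adjusted p = 0.0587), and STARD4 did (adjusted p = 0.0196). Without PATU-8988T DMSO replicate 1, TMEM97, STARD4, NPC1 and SCARB1 passed on the centred scale, 4 of 8, where 5.54% of all genes passed, TMEM97 by 0.51 ± 0.07 (adjusted p = 0.00184), NPC1 by 0.56 ± 0.10 (adjusted p = 0.00960) and SCARB1 by 0.49 ± 0.12 (adjusted p = 0.0370).

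STARD4, a soluble carrier of cholesterol between membranes and a known SREBP2 target, rose in PATU-8902 at 24 h on both scales and at 6 h on the centred scale. It read 3.57, 3.01 and 2.66 FPKM in DMSO, 6.15, 8.08 and 7.30 FPKM at 6 h, and 9.21, 9.57 and 14.2 FPKM at 24 h. The 3 groups did not overlap, which for 6 h against DMSO held for 1.15% of all genes as higher and for 24 h against 6 h for 3.37%. The 24 h change was 1.54 ± 0.19 deposited (adjusted p = 0.00142), and STARD4 ranked 2 of all genes by p. Centred, it was 1.47 ± 0.15 (adjusted p = 3.93e-05). The call held on both scales in 6 of 6 fits that left out 1 library, with deposited changes of 1.35 to 1.64. In a fit of the 6 compared libraries alone on the deposited scale the adjusted p was 0.0666, with the same change. At 6 h the change was 1.00 ± 0.19 deposited (adjusted p = 0.228) and 1.05 ± 0.15 centred (adjusted p = 0.00519), and the centred call held in 6 of 6 fits that left out 1 library. The step between the times, 0.53 ± 0.19 deposited and 0.43 ± 0.15 centred, did not pass (adjusted p of 1.0 and 0.542).

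In PATU-8988T STARD4 read 6.98, 7.81 and 6.90 FPKM in DMSO, 10.5, 10.997 and 14.97 FPKM at 6 h, and 8.04, 6.41 and 8.69 FPKM at 24 h. All libraries at 6 h were above those in DMSO, as for 1.98% of all genes deposited and 10.2% centred, and above those at 24 h as deposited, as for 9.09% of all genes. The 6 h change was 0.66 ± 0.19 deposited (adjusted p = 1.0) and 0.68 ± 0.15 centred (adjusted p = 0.0815). The 24 h change was 0.07 ± 0.19 deposited and 0.42 ± 0.15 centred (adjusted p = 0.295), while the median of all genes was at -0.35 deposited. Without PATU-8988T DMSO replicate 1, the centred changes were 0.91 ± 0.11 at 6 h (adjusted p = 0.000215) and 0.66 ± 0.11 at 24 h (adjusted p = 0.00145), where 42.6% and 40.8% of all genes passed. As deposited without it they were 0.64 ± 0.21 (adjusted p = 0.122) at 6 h and 0.05 ± 0.21 (adjusted p = 0.835) at 24 h, and neither passed. The difference between the lines of the 24 h change, PATU-8902 minus PATU-8988T, was 1.46 ± 0.27 deposited (adjusted p = 0.162) and 1.05 ± 0.22 centred (adjusted p = 0.0804). Without that replicate it was 1.48 ± 0.28 (adjusted p = 0.0423) and 0.81 ± 0.15 (adjusted p = 0.0116).

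SOAT1, which esterifies cholesterol for storage in lipid droplets, passed in no inhibitor comparison with all libraries. It read 12.2, 11.1 and 17.1 FPKM at 24 h in PATU-8902, against 12.2, 11.1 and 10.9 FPKM in DMSO. The change was 0.20 ± 0.22 deposited and 0.14 ± 0.08 centred, with a 95% interval of -0.03 to 0.30 centred. In PATU-8988T it read 10.98, 11.2 and 14.3 FPKM at 24 h, against 10.9, 18.9 and 14.3 FPKM in DMSO, and the groups overlapped. The ratio of STARD4 to SOAT1 within a library, carrier to storage enzyme, was 0.245 to 0.293 in DMSO, 0.629 to 0.694 at 6 h and 0.757 to 0.862 at 24 h in PATU-8902, with no overlap between the 3 groups. In PATU-8988T it was 0.413 to 0.643 in DMSO, 0.719 to 0.804 at 6 h and 0.572 to 0.733 at 24 h, and 6 h was clear of DMSO only. The ratio of STARD4 to MYLIP in PATU-8902 was 1.61 to 2.41 at 24 h, 1.87 to 2.36 at 6 h and 0.403 to 0.456 in DMSO.

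**Figure D3:**
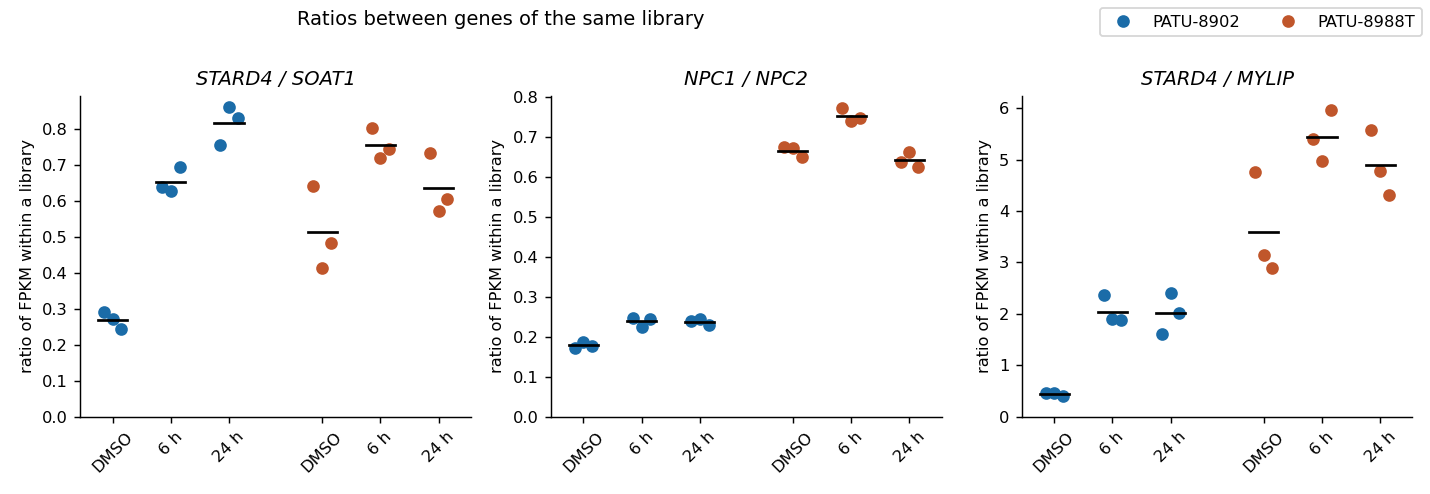
Ratio of the FPKM of 2 genes within each library (points) with the mean of each group (bar), by line and condition. In PATU-8902 the ratios STARD4 to SOAT1, NPC1 to NPC2 and STARD4 to MYLIP are higher in every inhibitor library than in every DMSO library.

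Without inhibitor the 2 lines held 5 of these genes, SCARB1, LIPA, NPC1, MYLIP and STARD4, at different levels on both scales. In DMSO, SCARB1 averaged 3.29 ± 0.534 FPKM in PATU-8902 and 27.4 ± 12.05 FPKM in PATU-8988T (SD, n = 3 each), a difference of -2.63 ± 0.29 deposited and -3.13 ± 0.11 centred. LIPA averaged 88.8 ± 10.7 FPKM in PATU-8902 and 19.6 ± 4.85 FPKM in PATU-8988T, 2.15 ± 0.25 deposited and 1.65 ± 0.07 centred. NPC1 averaged 14.1 ± 2.18 FPKM in PATU-8902 and 51.0 ± 20.0 FPKM in PATU-8988T, -1.71 ± 0.30 deposited and -2.21 ± 0.08 centred. So of the lysosomal genes the lipase was the higher in PATU-8902 and the exporter the lower, and the ratio of LIPA to NPC1 was 6.06 to 6.63 in PATU-8902 and 0.345 to 0.510 in PATU-8988T. MYLIP averaged 7.03 ± 0.741 FPKM in PATU-8902 and 2.11 ± 0.563 FPKM in PATU-8988T, and STARD4 3.08 ± 0.460 FPKM in PATU-8902 and 7.23 ± 0.502 FPKM in PATU-8988T.

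These 5 genes passed on both scales, with adjusted p of at most 0.000207 by limma, and each kept its call on both scales in 6 of 6 fits that left out 1 library. Their libraries did not overlap between the lines, where 46.5% of all genes lay above and 10.8% below as deposited and 32.5% and 36.2% centred. On the deposited scale 5 of 8 passed, 2 higher and 3 lower in PATU-8902, where 41.8% of all genes passed as higher and 12.4% as lower. On the centred scale 8 of 8 passed, 2 higher and 6 lower, where 34.4% passed as higher and 37.8% as lower. NPC2 averaged 79.3 ± 15.3 FPKM in PATU-8902 and 76.8 ± 30.2 FPKM in PATU-8988T, and TMEM97 72.4 ± 5.96 FPKM in PATU-8902 and 72.3 ± 25.8 FPKM in PATU-8988T. Their difference was 0.12 ± 0.33 and 0.06 ± 0.27 deposited and turned to -0.38 ± 0.11 and -0.44 ± 0.06 centred, since centring takes out the higher library medians of PATU-8902 in DMSO. As deposited, the median of the changes of all genes between the lines was 0.45. SOAT1 averaged 11.4 ± 0.712 FPKM in PATU-8902 and 14.7 ± 4.04 FPKM in PATU-8988T, -0.31 ± 0.22 deposited and -0.81 ± 0.08 centred.

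**Figure D4:**
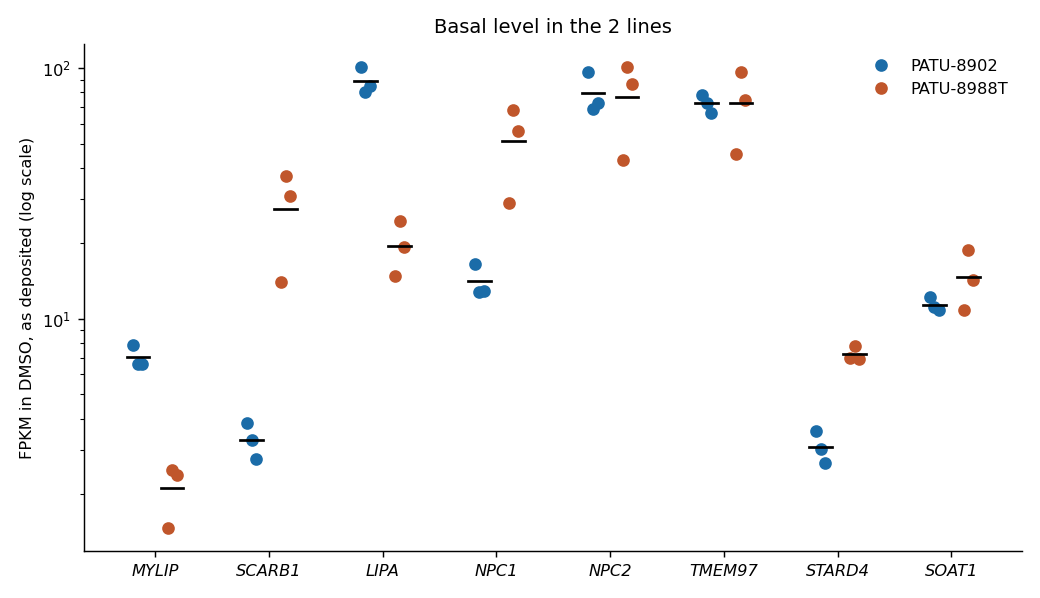
FPKM as deposited of the 8 genes in the 3 DMSO libraries of each line (points, log scale) with the group mean (bar). LIPA and MYLIP are higher and SCARB1, NPC1 and STARD4 lower in every PATU-8902 library, while NPC2, TMEM97 and SOAT1 overlap.

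Over the 6 groups, the order of mean FPKM followed the line for most genes. SCARB1 and NPC1 ran from PATU-8902 DMSO at the low end, 3.29 and 14.1 FPKM, to PATU-8988T DMSO at the high end, 27.4 and 51.0 FPKM, and only the step between the lines separated neighbours. LIPA ran from 16.3 FPKM in PATU-8988T at 24 h to 122 FPKM in PATU-8902 at 24 h, and MYLIP from 1.60 FPKM in PATU-8988T at 24 h to 7.03 FPKM in PATU-8902 DMSO, again with only the step between the lines clear of overlap. For NPC2, TMEM97 and SOAT1 no neighbours in the order were apart, and the highest mean was 1.51, 1.96 and 1.47 times the lowest. STARD4 was the only one of the 8 whose order mixed the lines with 2 steps clear, from PATU-8902 DMSO to PATU-8902 at 6 h and from PATU-8988T at 24 h to PATU-8902 at 24 h.

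Genes of the same pathways that are not among the 8 were read from lists. In the 24 h comparison of PATU-8902 on the centred scale, 17 of 22 cholesterol synthesis genes passed as higher, with a median change of 1.07, beside 4 of 8 and a median of 0.26 for the genes described here, and 0.418% and -0.02 over all genes. As deposited 7 of 22 passed, with a median of 1.13, beside 1 of 8 and 0.32 for the genes described here, and 0.105% and 0.04 over all genes. Of 13 tested genes of SREBP control, 2 passed centred, INSIG1, which holds the SREBP complex in the endoplasmic reticulum, by 1.46 ± 0.09 and SREBF2, which encodes SREBP2, by 0.83 ± 0.11, with adjusted p of 1.04e-07 and 0.000389, and as deposited INSIG1 alone passed, by 1.52 ± 0.26 (adjusted p = 0.0178). Of 27 tested genes of lipoprotein uptake and receptor trafficking, 0 passed centred and 1 deposited, the endothelial lipase LIPG, which cleaves lipoprotein phospholipids, at 2.93 ± 0.260 FPKM at 24 h against 1.08 ± 0.138 FPKM in DMSO (adjusted p = 0.00275). LRP8, a lipoprotein receptor that MYLIP degrades in human cells, averaged 5.03 ± 0.472 FPKM at 24 h and 2.99 ± 0.312 FPKM in DMSO and did not pass (adjusted p = 0.104 by limma, centred). VLDLR, another lipoprotein receptor of this list, averaged 2.75 ± 0.194 FPKM at 24 h and 2.33 ± 0.129 FPKM in DMSO and did not pass either. These are RNA levels, and receptor protein was not measured. None passed on either scale of 29 lysosomal membrane and lipid hydrolysis genes (median -0.03 centred), 24 sterol carriers and contact proteins (-0.02), 14 sterol ester and lipid droplet genes (-0.09) and 8 LXR receptors and efflux targets (-0.03). Centred, 1, 2, 3 and 2 of them had an unadjusted p below 0.05 by limma, and deposited only TTC39B of the LXR list. The efflux targets ABCA1 and ABCG1 did not reach the filter and were not tested, so these counts leave them out. In PATU-8902 ABCA1 averaged 2.13 ± 0.120 FPKM in DMSO, 1.13 ± 0.0482 FPKM at 6 h and 0.661 ± 0.193 FPKM at 24 h. ABCG1, nearer the floor, averaged 0.449, 0.318 and 0.164 FPKM. The highest centred change among the 24 other carriers was that of MOSPD2, a contact site tether, at 0.34 ± 0.16, beside 1.47 for STARD4.

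**Figure D5:**
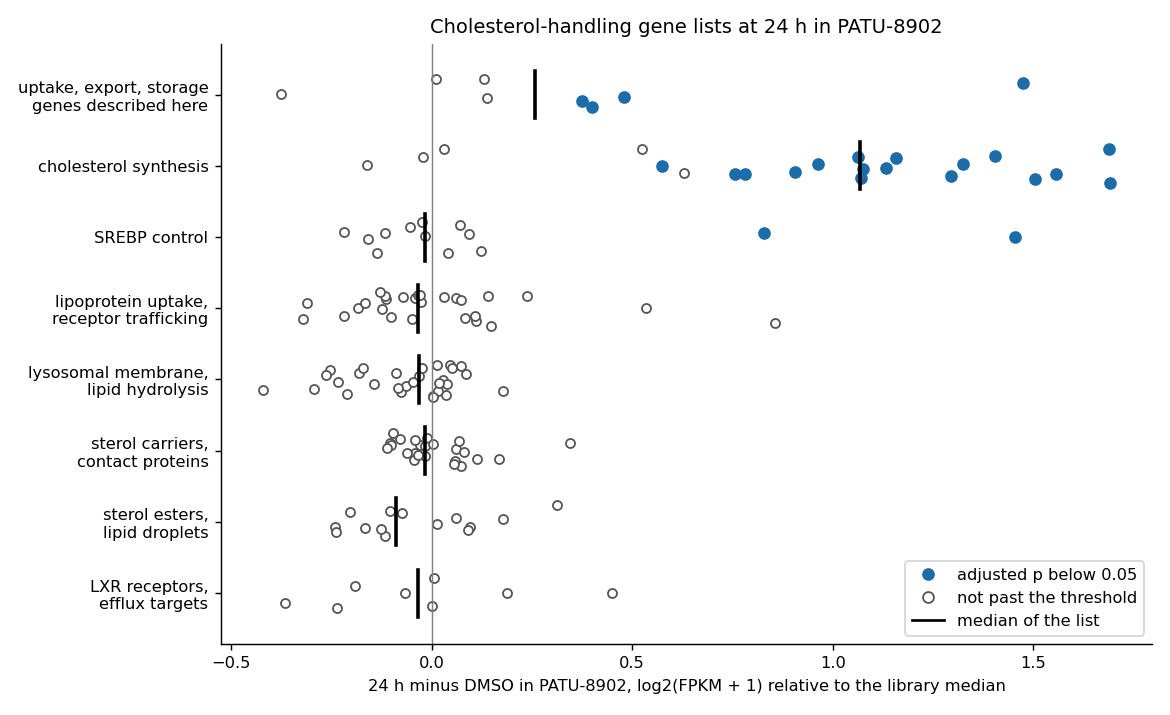
Change at 24 h against DMSO in PATU-8902, in log2(FPKM + 1) relative to the library median, of each tested gene (points) of the 8 genes described here and of 7 lists of related genes, with the median of each list (bar) and filled points where the adjusted p is below 0.05. Filled points lie in the first 3 rows, where 4 of 8 genes described here, 17 of 22 synthesis genes and 2 of 13 SREBP control genes passed.

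The genes most like each of the 8 over the 18 libraries were found by Pearson r on centred values after the mean of each line was subtracted, and these are descriptions over libraries that share their groups. STARD4 was most like MSMO1, HMGCS1 and IDI1 (r of 0.98, 0.96 and 0.95), all enzymes of sterol synthesis, and TMEM97 was most like SQLE, RDH11 and CYP51A1 (0.96, 0.93 and 0.92). LIPA was most like ACSL4, SC5D and IDH1 (0.91, 0.89 and 0.87). NPC1 was most like LPIN1 and ADIPOR2 among the genes reported here (0.87 and 0.86). SOAT1 was most like ELOVL5, LPP and CCPG1 (0.95, 0.94 and 0.93), NPC2 like HPCAL1, VAT1 and TSEN34 (0.88, 0.87 and 0.87), SCARB1 like RAB15, TFE3 and NOMO1 (0.86, 0.86 and 0.86) and MYLIP like CEP72, PDGFA and ERCC8 (0.82, 0.74 and 0.72). Between the 8 genes r was highest for LIPA with STARD4, STARD4 with TMEM97 and NPC1 with TMEM97 (0.83, 0.81 and 0.78) and lowest for MYLIP with NPC1 (-0.68).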

How the data were processed

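Polyadenylated RNA of 18 libraries was sequenced in 75 bp single-end reads after ERCC spike-in RNA was added, per the labels' protocols. The authors deposited FPKM values scaled between libraries, made with HISAT, Cufflinks and Cuffnorm on hg19, per the submitters' processing notes. Tool versions are not given in the sources. The deposited table gives no counts, so sequencing depth is unknown and no counting interval is printed. Of 26341 rows, 92 were spike-ins.

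The 11477 genes averaging 1 FPKM or more were fitted as log2(FPKM + 1), which understates the change of low genes, in one limma model with trend (version 3.58.1, R 4.3.3; 6 group means, 12 residual degrees of freedom). P-values are 2-sided with Benjamini-Hochberg adjustment over these genes within each of 9 contrasts, at a threshold of 0.05. The method was tested on simulated data. Errors of changes are SE, and errors of FPKM are SD. Adjusted p-values that round to 1 are written as 1.0.

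All 8 genes are named in every comparison, with the 3 most alike genes of each (1 such gene is not reported here), and genes of the lists where they passed or where few did; LRP8 and MOSPD2 were named after their values were seen. Single changes have alternatives where the unadjusted p was below 0.05 on either scale. The genes and lists were chosen with earlier results of these data known. Promoters were matched for 7 of 8 genes. SCARB1 was not matched. Alternatives were median-centring, spike-in rescaling, a pseudocount of 0.1, no filter, a filter at 5 FPKM, the compared groups fitted alone, a block for replicate number and leaving out each library.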

Additional observations from a re-analysis of the deposited data

Results flagged for a closer look

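The 24 h change of TMEM97 differed between the lines on the centred scale only. It was 0.47 higher in PATU-8902 than in PATU-8988T on the centred log2 scale, with an SE of 0.08 and an adjusted p of 0.0109 by limma for the interaction. Every PATU-8902 library at 24 h was above every DMSO library of that line, as for 6.11% of all genes centred. As deposited the difference was 0.88 with an adjusted p of 0.547, and centred with the replicate number as a block its adjusted p was 0.0587.

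STARD4 had differences of opposite sign between the inhibitor times in the 2 lines as deposited, neither of which passed (adjusted p of 1.0 and 0.442 by limma). At 24 h minus 6 h it was 0.53 in PATU-8902, with all 3 libraries at 24 h above those at 6 h, as for 3.37% of all genes. In PATU-8988T it was -0.59, with all 3 below, as for 9.09% of all genes, beside a median of -0.32 over all genes there. Centred, the change in PATU-8988T was -0.25 and the libraries of the 2 times overlapped. The difference between the lines, a contrast added after seeing the data, was 1.12 ± 0.27 (SE) as deposited, with an adjusted p of 0.476 by limma. Centred it was 0.68 ± 0.22 with an adjusted p of 0.458 by limma.

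TMEM97 had differences of opposite sign on the centred scale, neither of which passed (adjusted p of 0.176 and 0.856 by limma). At 24 h minus 6 h it was 0.23 in PATU-8902 and -0.073 in PATU-8988T. The 24 h and 6 h libraries did not overlap in either line, which is the rule that flagged it. Of all genes 7.31% lay above in PATU-8902 and 12.2% lay below in PATU-8988T on that scale. The difference between the lines was 0.31 ± 0.08 with an adjusted p of 0.388 by limma, in the same added contrast. In that contrast 0 of all tested genes passed as deposited and 10 centred.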

How the results depend on the processing

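The scaling between libraries decided most counts. The number of the 8 genes that passed was 1 as deposited and 4 centred at 24 h in PATU-8902, 0 and 2 at 6 h in PATU-8902, 0 and 1 for the line difference at 24 h, and 5 and 8 between the lines in DMSO. In a fit of the compared libraries alone, 0 passed at 24 h in PATU-8902. NPC2 and TMEM97 between the lines in DMSO turned to -0.38 and -0.44 centred. A pseudocount of 0.1 turned the line difference of MYLIP at 24 h to 0.0038.

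Deviations of same-numbered libraries from their group means had an r of -0.22 to 0.14 across genes. Of these, 3 of 18 were above 0.1, all in PATU-8988T. An r across genes cannot see a shift of a whole library. In PATU-8988T replicate 1 had the lowest median of its group in DMSO, at 6 h and at 24 h (6.12, 7.08 and 6.30 FPKM). In PATU-8902 the lowest was replicate 3 in DMSO, replicate 1 at 6 h and replicate 2 at 24 h. The best match carried the same number in 2 of 9 pairs in PATU-8902 and 6 of 9 in PATU-8988T. Since not every pair exceeded 0.1, the numbers were not taken as pairs. With the replicate block on centred values, 2 passed at 24 h in PATU-8902, STARD4 and TMEM97 (LIPA and NPC1 did not, at adjusted p of 0.0605 and 0.125), and 2 at 6 h, STARD4 and MYLIP. In the line difference at 24 h 1 passed, STARD4 (adjusted p = 0.0196) in place of TMEM97 (0.0587), and NPC2 and TMEM97 between the lines were -0.26 and -0.45. Without centring the replicate block gave 1, 0 and 0.

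Leaving out 1 library gave 1 to 3 genes at 24 h and 0 to 2 at 6 h in PATU-8902, 0 to 4 at both times in PATU-8988T, 0 to 4 and 0 to 3 for the line differences at 24 h and 6 h, and 5 to 8 between the lines, over both scales. The upper ends in PATU-8988T and in the line differences came without DMSO replicate 1 of PATU-8988T. The line difference of MYLIP at 24 h ran from -0.57 to 0.13, NPC2 between the lines from -0.49 to 0.36, TMEM97 between the lines from -0.48 to 0.31, and STARD4 at 24 h in PATU-8988T from -0.0060 to 0.66.

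Counts of all genes at 24 h in PATU-8902 were 13 as deposited, 51 centred, 42 centred with the block, 25 with no filter, 9 with the filter at 5 FPKM and 3 in the compared libraries alone. At 6 h in PATU-8902 they were 1, 13, 13, 7, 1 and 0, for 24 h against 6 h 0, 28, 17, 11, 0 and 0, and for the line difference at 24 h 1, 26, 23, 2, 0 and 1. In PATU-8988T they were 0, 0, 0, 3, 0 and 4 at 24 h, 0, 9, 5, 2, 1 and 5 at 6 h, and 0, 0, 0, 13, 0 and 29 for 24 h against 6 h.
Spike-in rescaling changed no call of the 8 genes. The mean log2 deviation of the spike-ins was only -0.06 to 0.05 before it, so this alternative could move values little.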
